A study of Mus musculus with 2 samples.

Results

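Weak, solitary NcoA3 peaks in stretches of the mouse genome with few control reads are described here, as mapped by chromatin immunoprecipitation and sequencing (ChIP-seq) in embryonic stem cells. The authors' list on the mouse build mm8 holds 2017 peaks, and 551 of them are members of this set. Of the 2017, 1995 lay on autosomes, 1658 of those had fewer than 30 ChIP tags, and 1500 of those had no other summit within 10000 bp. Leaving out positions 53000001 to 111000000 of chromosome 8 kept 1311 peaks. The last condition was low input around the summit, which 551 peaks met and 760 did not. It was met where the fixed 100 kb bin holding the summit had fewer input read 5′ ends than the median bin, which held 541.5. That median was taken over the 23578 autosomal bins with 100 or more input reads. The 551 are called control-poor peaks below, and the 760 that met every condition but the last are called control-rich peaks.

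The data are 2 libraries from a mouse embryonic stem cell line, E14. The cells were grown on gelatin with leukaemia inhibitory factor, a cytokine that holds such cells in the undifferentiated state. The ChIP library came from an NcoA3 precipitation of this chromatin, and no treatment or genetic change is named for either library. The control is input by its title and IgG by its antibody field, and it is called input here. Each kind has 1 library, so nothing below has a replicate check, and the intervals are 95% exact intervals that cover counting error only. The reads are from DNA, so the identity of the cells could not be checked against marker gene expression.

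NcoA3 (SRC-3) is a p160 coactivator. It does not read DNA itself but is brought to chromatin by nuclear receptors and other factors, and there it gathers histone acetyltransferases such as p300. In embryonic stem cells the study ties it to Esrrb, an orphan nuclear receptor of the pluripotency network. A coactivator held to DNA through other proteins is crosslinked indirectly, and its sites can give few reads over the background. Whether this bears on the peaks described here was not tested. An input library is chromatin read without selection, and it records how densely each region is recovered and aligned in the absence of an antibody.

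The values that chose these peaks were the ChIP tags, the call against the control and the input reads of the bin. Their levels in the 2 libraries are therefore a description and are not tested as findings. In the authors' deposited table the tag count of the 551 peaks ran from 13 to 29 with a median of 14, and 13 was the lowest count in the whole list. At that count stood 256 of them (46.5%), against 220 of the 760 control-rich peaks (28.9%). Tag counts of 13 to 15 covered 417 (75.7%) of the control-poor and 421 (55.4%) of the control-rich peaks. The control-poor peaks thus sat closer to the lower end of the list. Their median length was 587 bp (quartiles 561 and 627 bp). The authors' score, 10 times the negative log10 of the caller's p-value, had a median of 63.04 and ran from 50.07 to 183.96. The empirical false discovery rate in that table was 100% for all 551, as it was for all 760 control-rich peaks and for 2014 of the whole list of 2017.

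Reads were counted within each peak as the authors drew it. In the ChIP library a control-poor peak held 10 to 29 reads with a median of 13 (quartiles 12 and 15). In the input it held 0 to 19 reads with a median of 3 (quartiles 2 and 5). The read counts of the 2 libraries overlapped in range, since the highest input count passed the lowest ChIP count. Pooled over all 551, the peaks held 7880 ChIP reads and 2048 input reads. Per read of each library, the ChIP signal was 5.06 times the input signal (interval 4.82 to 5.31). Control-rich peaks held 12444 ChIP and 3947 input reads, a ratio of 4.14 (interval 3.997 to 4.29). The median fold per peak, with 1 read added in each library, was 4.38 in the control-poor and 3.72 in the control-rich peaks. Among the control-poor peaks that fold ran from 1.58 to 22.3. It reached 2 in 542 of them, 4 in 316 and 8 in 84.

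**Figure D1:**
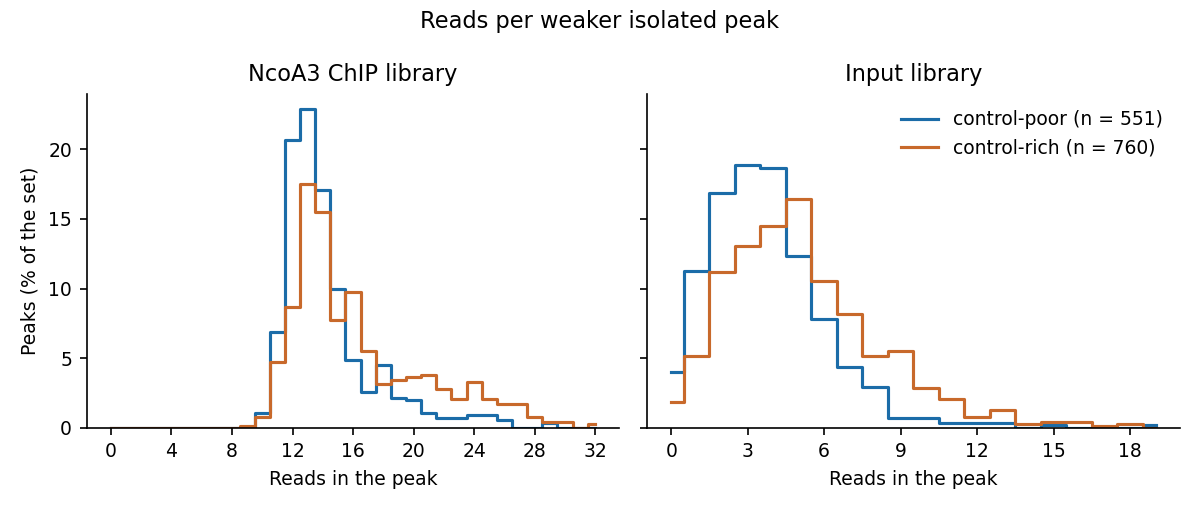
Share of peaks (percent of each set) by the number of reads in the peak, in the NcoA3 ChIP library (left) and the input library (right), for 551 control-poor and 760 control-rich peaks. Control-poor peaks gather at 12 to 14 ChIP reads and at 2 to 4 input reads, and more of the control-rich peaks have high counts in both libraries.

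In an exact binomial test of ChIP against input reads with Benjamini-Hochberg adjustment over all 2017 peaks, 95.3% of the list was higher in the ChIP library. Of the control-poor peaks 522 of 551 (94.7%) were called higher, 29 did not pass and 0 were called lower. Without the adjustment, 522 were again under a p of 0.05. The call on which the list rests uses reads of the same 2 libraries, so nothing is read from this count. The 29 that did not pass held 10 to 25 ChIP reads and 5 to 19 input reads, with folds of 1.58 to 2.44. The 22 peaks with 0 input reads held 11 to 16 ChIP reads. Had the input held the floor of 3 reads in each, their ratios would have been 4.82 to 7.01, without any counting error on the ChIP side. With that error counted, the exact lower bounds of their ratios ran from 3.30 to 5.07. Their bins held 202 to 502 input reads with a median of 391.5, so input was present around them. The floor of 3 reads that a count of 0 permits is 0.198 RPM in the input, where RPM means reads per 1000000 reads of the library.

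The region around these peaks was already richer in ChIP than in input reads. In the 100 kb centred on the summit, with the peak left out, the ratio of the libraries had a median of 1.48 times that of the whole libraries (quartiles 1.32 and 1.62). It was above 1 for 535 of the 551 (97.1%), and for 1341 of all 2017 peaks (66.5%). Fixed control-poor bins without a control-poor peak had a median ratio of 1.46, so a raised ratio was not particular to these peaks. Around control-rich peaks the median was 0.986, and 367 of 760 (48.3%) were above 1. The rule fixed the input side of this ratio. The ChIP side was not part of the rule, and it differed less than the input side between the sets. The bins of the control-poor peaks held a median of 425 input and 487 ChIP reads, and those of control-rich peaks 750.5 input and 568 ChIP reads. These bin counts include the reads of the peaks themselves. Over the 23578 bins the median was 470 ChIP reads. The surroundings of the control-poor peaks were therefore at a usual level in the ChIP library while low in the input.

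**Figure D2:**
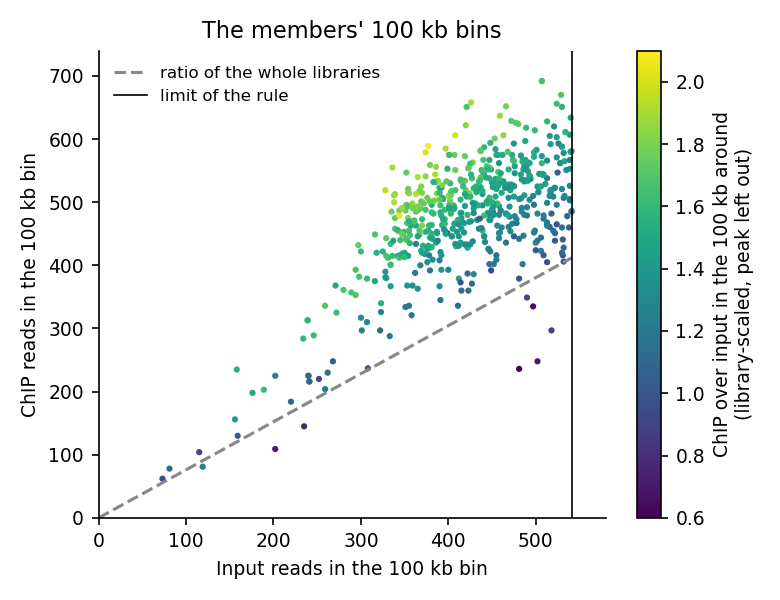
ChIP reads against input reads in the 100 kb bin of each of the 551 control-poor peaks, coloured by the library-scaled ratio in the 100 kb around the summit. The vertical line is the limit of 541.5 input reads and the dashed line the ratio of the whole libraries. Most points lie above the dashed line, and 535 of 551 have a ratio above 1 in the 100 kb around them.

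Rings around the summit separated the local part of the signal from this regional part. Within 100 bp of the summit the control-poor peaks had 35.1 ChIP reads per kb and 7.09 input reads per kb, a library-scaled ratio of 6.50 (interval 6.02 to 7.03). From 100 to 300 bp the ratio was 4.06, and from 300 bp to 1 kb it was 1.69 (interval 1.62 to 1.76). From 1 to 2 kb it was 1.51 (interval 1.45 to 1.56). At 2 to 5 kb it was 1.44 (interval 1.41 to 1.48), with 5.06 ChIP and 4.61 input reads per kb. Between 5 and 50 kb it was 1.44 again, and between 50 and 500 kb 1.36 (interval 1.35 to 1.36). Most of the ChIP excess over the regional level thus lay within about 1 kb, and a ratio above 1 reached as far as 500 kb. For control-rich peaks the same rings gave 6.20 within 100 bp, 0.985 from 2 to 5 kb and 0.912 between 50 and 500 kb.

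Scaling each peak by its own 100 kb, with the peak left out, took this regional level into account. The pooled ratio of the control-poor peaks became 3.53 (interval 3.36 to 3.70) and the median fold 3.02. These values are not given for the control-rich peaks. The library-scaled pooled ratios, 5.06 for control-poor and 4.14 for control-rich peaks, include unlike regional levels, with medians of 1.48 and 0.986. They therefore do not show that control-poor peaks stood out more from their surroundings. Within 100 bp of the summit the library-scaled ratios were closer, at 6.50 and 6.20. With scaling by the 100 kb around, the exact binomial test with Benjamini-Hochberg adjustment called 73.9% of all 2017 peaks higher. It called 314 of the 551 control-poor peaks (57.0%) and 651 of the 760 control-rich peaks (85.7%). The rule chose low input around the control-poor peaks, and they also held fewer reads than the control-rich peaks. The part of either in the lower share was not tested. By tag count, the peaks called with this scaling were 131 of 256 (51.2%) at 13 tags and 36 of 48 at 20 to 29 tags.

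Both libraries rose at the summits. In the ChIP library the density within 100 bp was 6.93 times that at 2 to 5 kb (interval 6.69 to 7.18). The caller placed the summits on reads of this library, so the rise follows in part from that. In the input it was 1.54 times (interval 1.43 to 1.65), from 785 reads within 100 bp of the 551 summits. At control-rich summits the input rise was 1.06 times (interval 0.999 to 1.12), and the ChIP rise was 6.65 times (interval 6.47 to 6.84). The intervals of the input rise did not overlap between the sets, while no further test was made. Low input in the bin, which covers the summit and its surroundings alike, was a condition of the set. The part of the rule in this rise was not tested.

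**Figure D3:**
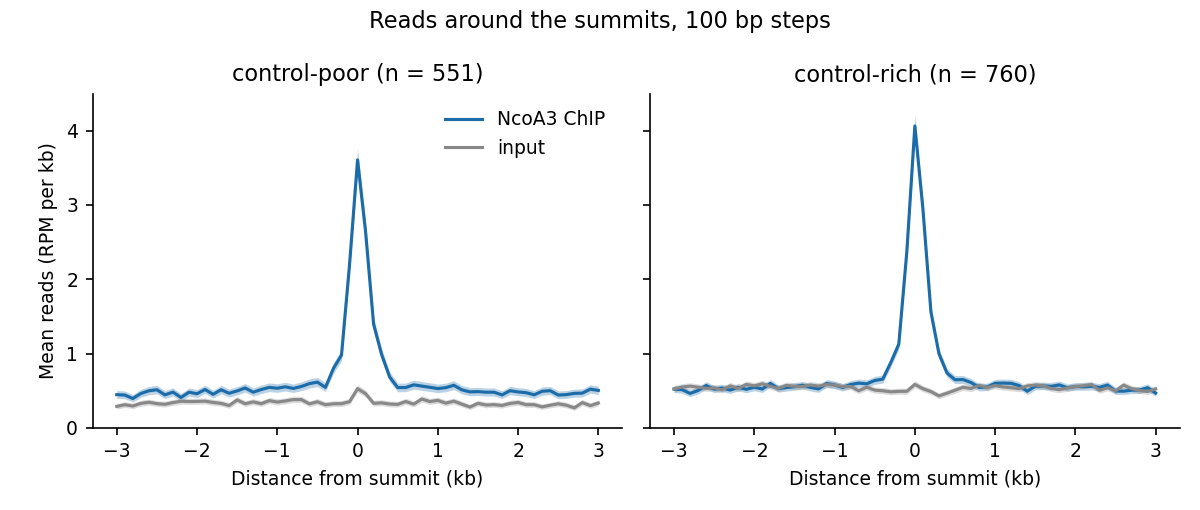
Mean reads per peak (RPM per kb) in 100 bp steps up to 3 kb from the summit, for control-poor (left) and control-rich (right) peaks, with 95% exact Poisson intervals as bands. In the control-poor set the ChIP line stays above the input line at all distances shown and the input has a small maximum of 0.527 at the summit. In the control-rich set both lines run together away from the summit.

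The input rise was spread over many peaks. Of the 551 summits, 152 (27.6%) had 0 input reads within 100 bp, 190 had 1, 109 had 2, 63 had 3, 24 had 4 and 13 had 5 or more. The highest had 13. Those 13 summits held 92 of the 785 reads, and without them the rise was 1.398 times (interval 1.29 to 1.51). This subset was defined by the input reads themselves, so the value without it is lower by construction. The peaks were also divided into 3 groups of like size by the input in their bin. The rise was 1.91 times (interval 1.69 to 2.16) in the lowest group, with 73 to 390 input reads in the bin. It was 1.41 times in the middle group and 1.38 times (interval 1.22 to 1.56) in the highest. Input in the bin includes that of the flanks, so a higher rise in the lowest group may be in part built in and nothing is read from it. By tag count it was 1.36 times (interval 1.21 to 1.52) at 13 tags and 2.16 times (interval 1.77 to 2.61) at 20 to 29 tags. The peaks with more ChIP tags thus had a higher input density at the summit relative to their flanks. The class at 20 to 29 tags holds 48 peaks. Among them is the peak with 19 input reads, in a bin of only 73.

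The strands of the reads were set against the summit, since fragments around a bound point give plus-strand 5′ ends upstream and minus-strand 5′ ends downstream of it. In the ChIP library, within 200 bp of control-poor summits, 80.0% of the upstream 5′ ends were on the plus strand (2507 of plus and 627 of minus). Downstream, 73.7% were on the minus strand (2033 of minus and 724 of plus). A caller that extends reads before placing the summit favours this arrangement, so it is a description. In the input, 60.9% of upstream ends were on the plus strand (interval 57.1% to 64.5%) and 55.9% of downstream ends on the minus strand (interval 52.1% to 59.6%). The input at control-rich summits gave 53.1% (interval 50.2% to 55.9%) and 54.9% (interval 52.0% to 57.7%). In both sets the input reads thus leaned the same way as the ChIP reads, by a smaller margin. The downstream shares of the sets were close, and the upstream share was higher at control-poor summits, with intervals that did not overlap. The intervals take each read as independent, though reads gather in peaks, so they may be too narrow. The difference between the sets was not tested.

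Most control-poor peaks drew reads from both strands. The less frequent strand had a median of 4 ChIP reads within 200 bp of the summit, and 403 of the 551 (73.1%) had 3 or more on it. In 9 peaks it had 0. Of the control-rich peaks 616 of 760 (81.1%) had 3 or more, with a median of 12 ChIP reads within 200 bp against 10 in the control-poor peaks. The plus strand was in excess at 304 control-poor summits, the minus strand at 198, and they were equal at 49. The plus share was 54.8% (interval 53.6% to 56.1%), against 52.1% (interval 51.1% to 53.1%) at control-rich summits.

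The strongest control-poor peaks by the authors' score lay on 6 chromosomes. The top peak, at chr6:60293333-60294047 with its summit at 60293684, held 23 ChIP and 2 input reads. That was 1.999 RPM against 0.132 RPM, a ratio of 15.1 (interval 3.73 to 132.2). At chr13:103775284-103776062 there were 24 ChIP and 5 input reads, a ratio of 6.31 (interval 2.36 to 21.2). The peak at chr4:10326526-10327344 had 26 and 4, a ratio of 8.54 (interval 2.96 to 33.7). These intervals overlap widely, so the peaks cannot be ordered by ratio.

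At chr6:7702878-7703699 the ratio was 5.69, from 26 ChIP and 6 input reads. The peak at chr12:46484863-46485814 had the most ChIP reads in this set with 29 against 4 in the input, a ratio of 9.53 (interval 3.35 to 37.3). A second peak with 29 ChIP reads, at chr6:82669223-82670102, had 7 input reads. Its ratio was 5.44 (interval 2.33 to 14.7). The 100 kb around it was low in the ChIP library, with a ratio of 0.655 against 1.60 around the peak on chromosome 12.

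Of chromosome 3, chr3:61883875-61884469 held 21 ChIP and 4 input reads and chr3:46967125-46967550 held 18 and 2. The latter was short for the set at 426 bp. On chromosome 11, chr11:47483637-47484510 held 25 and 7 reads and chr11:73134589-73135426 held 22 and 4. The first of these had the highest deposited fold of the set, 11.13. The ratios of these 10 peaks ran from 4.69 to 15.1, and all 10 were also called with scaling by the 100 kb around them. The highest lower bound among them, 3.73, lay under the lowest upper bound, 12.8, so their intervals share a common range.

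At the other end by score, chr17:14777230-14777797 had the lowest score, 50.07, and held 14 ChIP and 2 input reads. The next, chr17:23074036-23074605, held 13 and 4, and chr4:111519388-111519956 held 12 and 8. The last of these was not called in the exact binomial test. A low score did not go with a low ratio at the first of the 3, which had a ratio of 9.20 (interval 2.11 to 83.4).

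The most input reads of the set, 19, lay at chr14:3532692-3533576, with 25 ChIP reads. Its bin held 73 input and 62 ChIP reads, so a large part of the few reads of that bin lay in this peak. It was 1 of 2 peaks, both on chromosome 14, in bins with fewer than 100 input reads. Without these 2 the pooled ratio was 5.08.

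The limits of the rule divided peaks with like values. At 29 tags, just inside, stood the peaks named above at chr12:46484863-46485814, chr6:82669223-82670102 and chr14:3532692-3533576, with 29, 29 and 25 ChIP reads. Just outside, at 30 tags, chr1:22420809-22421635 held 30 ChIP and 4 input reads. At the same count chr10:129822537-129823412 held 31 and 6, and chr2:109111987-109112940 held 26 and 10. At the input limit, 3 peaks with 541 input reads in the bin had 12 to 18 ChIP reads. They were chr16:42528204-42528666, chr3:53444472-53445071 and chr7:115334444-115335183. Just past it, chr12:54395806-54396367 and chr4:25886531-25887383 had 542 input reads in the bin and held 15 and 21 ChIP reads. These few peaks show no step in their values at either limit, and this was not examined over all peaks.

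The fold that the authors deposited shows which background the caller used. The caller divides by the largest of a genome-wide level and local levels over 1000 and 10000 bp, per the file header for the ranges. Spread evenly over the effective genome size of the header, its control tags come to 1.89 per 200 bp. The inverse of that is a step of 0.530. In the authors' deposited table the fold of 453 of the 551 control-poor peaks (82.2%; interval 78.8% to 85.3%) equalled a whole multiple of this step to within 0.0051. The multiples ran from 7 to 21 with a median of 9. Among control-rich peaks 319 of 760 (42.0%; interval 38.4% to 45.6%) did so. The rule chose low input around the control-poor peaks, which makes the genome-wide level the largest more often, so this difference follows from the choice and is a description. The 551 peaks held 83 distinct folds, of which 4.77 was the most frequent with 105 peaks. Both 4.24 and 5.30 occurred at 93 peaks.

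**Figure D4:**
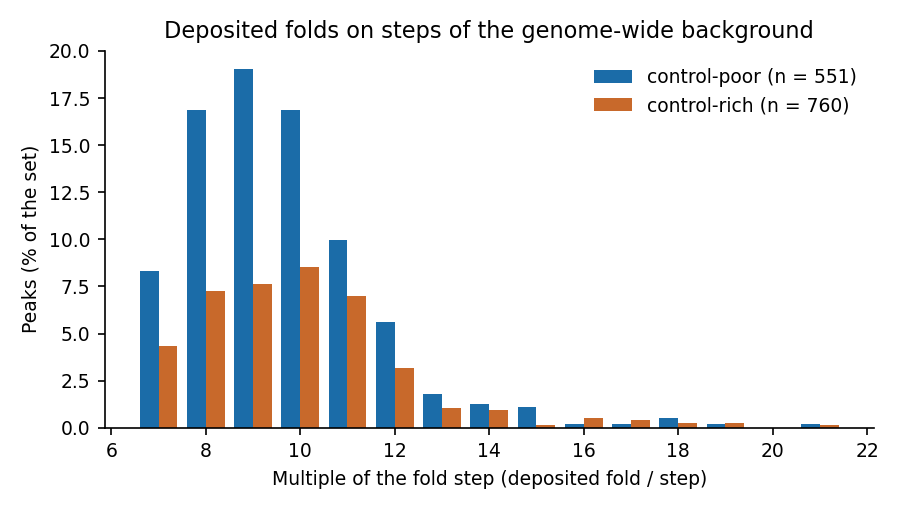
Share of peaks (percent of each set) whose deposited fold is a given multiple of the step of 0.530, for the multiples found among control-poor peaks. The control-poor bars are the taller ones from 7 to 15, with 105 of 551 peaks at the multiple of 9. Few peaks of either set lie above that range.

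For most control-poor peaks the deposited fold therefore had the genome-wide level as its base, and low input nearby did not raise it further. The 453 peaks on a step held a median of 3 input reads and 13 ChIP reads, and 443 of them were called in the exact binomial test. The 98 others held medians of 6 and 15, with a median fold of 2.93 against 4.93. Of those, 79 were called. Input within 1 kb centred on the summit had a median of 5 reads for peaks on a step and 8.5 for the others. In the 10 kb around, the medians were 45 and 54 input reads. By tag count the share on a step was 88.7% at 13 tags and 56.3% at 20 to 29 tags.

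Position along the genome was examined next. The control-poor bins with 100 or more input reads, outside the stretch of chromosome 8, numbered 11694 and held 549 of the peaks. That is 4.69 per 100 bins (interval 4.31 to 5.10), against 6.71 control-rich peaks per 100 control-rich bins (interval 6.24 to 7.21). A single peak lay in 503 control-poor bins and 2 lay in 23. Bins with a control-poor peak held a median of 487 ChIP and 425 input reads, and control-poor bins without had 447 and 399. The ratio of the libraries was nearly the same in both, at 1.51 and 1.46. The reads of bins with a peak include those of the peak itself. In the 100 kb centred on the summit, with the peak left out, the median ratio was 1.48.

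Among the control-poor bins, peaks were more frequent where either library was denser. Bins were divided into 5 groups of like size by input reads. In the lowest group, at 100 to 342 reads, 2.89 peaks fell per 100 bins (interval 2.25 to 3.67). In the highest, at 473 to 541 reads, there were 6.52 (interval 5.52 to 7.64). By ChIP reads with those of the peaks left out, the lowest group had 3.21 per 100 bins (interval 2.53 to 4.02) and the highest 7.67 (interval 6.58 to 8.89). By the ratio of the libraries there was no steady trend. The lowest group had 4.06 and the middle 5.52, and the highest had 3.98 (interval 3.21 to 4.87). Which peaks can reach 13 tags depends on the ChIP density, and the part of this in the result was not tested.

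The peaks lay on all 19 autosomes. Chromosome 1 held 54, chromosome 2 held 48 and chromosome 3 held 41. Chromosome 19 held 6 and chromosome 11 held 13. Chromosome 8 also held 13, counted only outside the stretch that the rule left out. Per 100 control-poor bins the density ran from 2.49 on chromosome 19 (interval 0.914 to 5.42) to 5.90 on chromosome 2 (interval 4.35 to 7.82). These intervals overlap, and so do those of every pair of chromosomes in between. Chromosome 11 had the lowest share of control-poor bins (33.5% of its counted bins) and chromosome 3 the highest (62.8%). Control-rich peaks were denser than control-poor peaks, each in their own bins, on 15 of the 19 chromosomes. The intervals of the 2 sets were apart on chromosomes 6, 18 and 19.

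**Figure D5:**
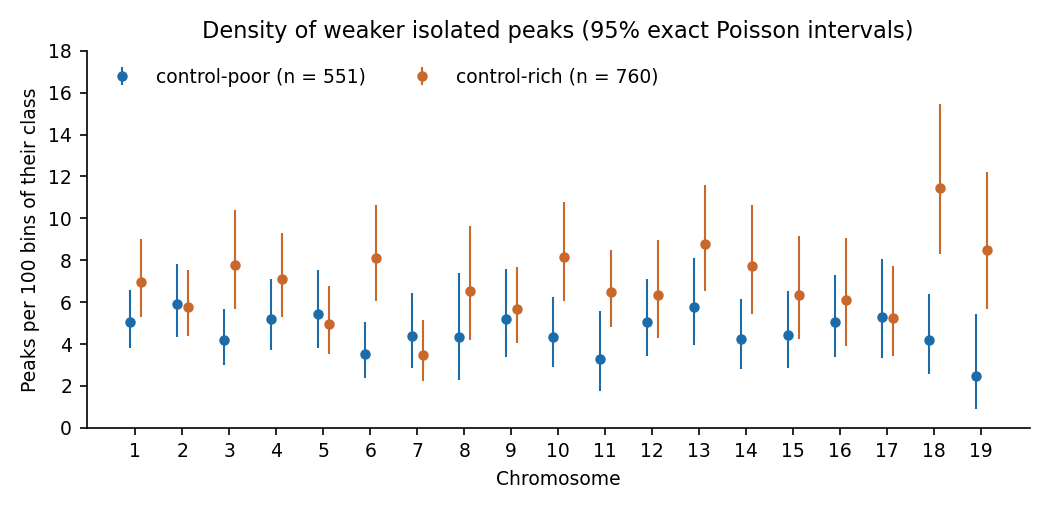
Peaks per 100 bins of 100 kb on each autosome, control-poor peaks over control-poor bins and control-rich peaks over control-rich bins, with 95% exact Poisson intervals. The control-poor points stay between 2.49 and 5.90, and their intervals overlap from chromosome to chromosome.

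Control-poor bins come in long runs, and the peaks followed them. The run of adjacent control-poor bins around a peak had a median of 22 bins (quartiles 10 and 47), and the longest had 120. Over all control-poor bins the median was 26. Of the 551 peaks 415 (75.3%) lay in runs of 10 or more bins, as did 78.1% of all control-poor bins. In a control-poor bin that stood alone lay 25 peaks (4.54%), against 3.43% of all control-poor bins. Both neighbouring bins were control-poor for 424 peaks (77.0%). The nearest other summit was at a median of 464.6 kb (quartiles 195.4 and 1066 kb), and at most 4.05 Mb. For 84 peaks it was closer than 100 kb, and for 148 farther than 1000 kb.

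Fixed windows of 600 bp, close to the length of these peaks, show how common such piles of reads were in the same bins. The control-poor bins held 1939953 windows, with a mean of 2.64 ChIP and 2.41 input reads. The variance was 1.74 times the mean for ChIP and 1.68 times for input, so reads in both were less even than independent counts of 1 mean. Windows with 13 or more ChIP reads numbered 838, and 269 of them overlapped a control-poor peak. Another 505 overlapped no peak of the list. The windows were not placed on summits, so a peak could be split between windows and miss this limit. A further 242 windows with 10 to 12 ChIP reads overlapped a control-poor peak. Windows with 13 or more input reads numbered 2020, of which 5 overlapped a control-poor peak. At 10 or more reads the order was the other way, with 9415 windows in the ChIP library and 8705 in the input. Which library had more dense windows thus depended on the limit. These counts were not scaled to library size, and the libraries held 11509916 ChIP and 15125180 input reads. Of the ChIP windows with 13 or more reads, most lay outside the control-poor peaks.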

How the data were processed

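The data were 1 NcoA3 ChIP library and 1 input library of E14 cells, deposited as aligned reads of 35 bp on mm8, as the submitters' processing notes name the build. The aligner and its settings are not given in the sources used here. The files held 11509916 ChIP and 15125180 input reads, and 0 positions occurred more than once on a strand. Peaks were called with MACS 1.4.1, per the file headers, on these 2 libraries without pooling, at a p-value limit of 1e-05 and at most 2 tags per position. Its header counts 11840947 ChIP and 17633689 control tags after filtering, more than the deposited files hold, so its tag counts and folds rest on other read sets than the reads counted here. Its list gives a tag count per peak, which the authors' caller wrote as whole numbers, a score (minus 10 times the log10 of its p-value, per the file headers), a fold, which is a ratio over local background per the file headers, and a false discovery rate in percent, as deposited by the authors.

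Reads were counted under Python 3.11.15 (scipy 1.17.1, pandas 2.3.3, numpy 2.4.6). The 5′ ends were moved inward by 66 bp (ChIP) and 75 bp (input), from strand offsets of 132 and 150 bp. The bins of the rule used ends that were not moved. Scaling used the reads of each library on the nuclear chromosomes and set 0.761 ChIP reads per input read as the level without enrichment. The exact binomial test was two-sided, adjusted after Benjamini-Hochberg over the 2017 peaks, with a limit of 0.05. It compares 2 libraries and not conditions. It was run on simulated independent Poisson counts with known folds and 1 library ratio. Those counts lack the uneven reads, the regional ratio and the selection of the real peaks, so they do not show its error rate here. Ratios of pooled reads have exact conditional intervals, shares exact (Clopper-Pearson) ones and densities exact Poisson ones, all at 95%. The reads carry no molecular identifiers and may not be independent molecules.

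The peaks named are the 10 with the highest score, the 3 with the lowest, those with the most reads, and those next to the limits of the rule; of the 22 with the fewest input reads a summary is given. The set, its rule and the comparisons were chosen with earlier results of these data known. No genome or annotation of build mm8 was used here, so no sequences and no nearby genes are given. Alternatives covered the limits of the rule, the placing and counting of reads, the scaling, the pseudocount and the flanks.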

Additional observations from a re-analysis of the deposited data

How the results depend on the processing

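With scaling by the 100 kb around each peak, 314 control-poor peaks were called higher in place of 522, the pooled ratio was 3.53 in place of 5.06 and the median fold 3.02 in place of 4.38. At an authors' score of 60 or more there were 365 peaks, with a pooled ratio of 5.41 and an input rise at the summit of 1.41 times. With fewer than 20 tags the ChIP rise was 6.61 times. With 5′ ends not moved the ChIP rise was 5.37 and the input rise 1.42 times. With flanks at 1 to 2 kb they were 6.09 and 1.41 times. With a pseudocount of 0.5 the median fold was 4.69. Without the peaks at 13 tags, a setting chosen after seeing the data, 295 peaks stayed, of which 283 were called, with a ChIP rise of 7.40 and an input rise of 1.68 times. Bins of 50 kb gave 535 peaks, 499 of them shared with the main set, and bins of 200 kb gave 576, with 511 shared. Isolation by 20000 bp left 528. The ratio in the 100 kb around the peaks moved by less than its interval in all 7 alternatives run for it. The 300 bp on each side of the summit gave 487 calls. Every ratio named here stayed above 1. No paired analysis was possible because each kind has 1 library. At these depths a peak rests on 10 to 29 ChIP reads, so single ratios have wide intervals.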
